A study of Mus musculus with 6 samples.

Results

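The baseline expression of uninduced Ba/F3 cells was read from 3 control arrays of the 6 arrays in the series, chosen by the titles that mark a culture as lacking NCOR1-LYN. Ba/F3 is an established mouse line of early B cell origin that depends on interleukin 3 (IL-3) for survival and division. The study was about the leukaemic fusion NCOR1-LYN, which was placed in Ba/F3 cells with the retroviral Retro-X Tet-on Advanced system, so that doxycycline switches it on. The control cultures are labelled with the genotype control and as DOX(-), and the design text calls them both uninduced and mock. Whether they carried the silent construct or a vector without the fusion is not settled by those words. Whether the line was 1 clone or a pool, the passage number and the IL-3 content of the medium are not given in the sources used here. The cultures were grown in triplicate, and nothing more is said on how independent they were, so the spreads below may be partly technical. Total RNA was labelled with biotin and hybridised to Affymetrix Mouse Genome 430 2.0 arrays, and the arrays of doxycycline-treated cells were not analysed here.

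Growth factor dependence in such cells rests on a receptor made of an IL-3-binding alpha chain, Il3ra, and a signalling beta chain. In the mouse the beta chain has a shared form, Csf2rb, which also serves the receptors for GM-CSF and interleukin 5, and a close copy, Csf2rb2, that serves IL-3 alone. The chains have no kinase domain and signal through the kinase JAK2 to STAT5, RAS and PI3 kinase, whose outputs include PIM and SOCS genes, MYC, cyclins and BCL2 family members. Because such cells are made dependent on an introduced kinase in transformation assays, the levels of receptors and kinases already present form the background of those assays.

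Levels are MAS5 signals, which are linear fluorescence intensities summarised over the probes of a probe set. For each of the 18193 genes with a usable symbol, the brightest probe set by mean over the 3 arrays was taken. Signals of different probe sets depend on their probes as well as on the transcript, so an order of genes given here is an order of signals and not of molecules per cell. A gene was called above 200 or below 50 when all 3 arrays lay on that side. Of all genes 8007 (44.0%) lay above 200, 5821 (32%) lay below 50 and 4365 (24%) met neither condition. A signal below 50 is a dim spot and does not show that a transcript is absent. Probe sets for the bacterial gene trpnX, a negative control of the array, read between 1.69 and 20.8. Where 3 signals follow each other, they belong to controls 1, 2 and 3 in that order, and no test was made, since the arrays form 1 group.

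Control 1 stood apart from the other two arrays. On the log2(signal + 64) scale, where 64 damps the noise of dim spots, controls 2 and 3 correlated at a Pearson r of 0.993 across all genes, control 1 with control 2 at 0.978 and with control 3 at 0.977. These correlations run across genes, which are not replicates. Among the 10928 genes with a mean signal over 50, 32 (0.293%) were at least 2-fold apart between controls 2 and 3. The corresponding counts were 631 (5.77%) between controls 1 and 2 and 658 (6.02%) between controls 1 and 3. The signal ratio of 3′ to 5′ probe sets for beta-actin, a sign of RNA integrity, was 1.17, 1.23 and 1.24, and that for Gapdh was 0.685, 0.703 and 0.742. Among spiked control transcripts, control 1 was lowest for bioB (822, 1178 and 1251), bioC (3036, 3912 and 3640) and bioD (10003, 15208 and 15051). It was highest for Phe (475, 327 and 367), Thr (1020, 383 and 309) and Dap (3295, 2352 and 2696). For Cre (35231, 36483 and 33659) and Lys (216, 220 and 131) it lay between the others. The part of RNA handling and of hybridisation in the distance of control 1 was not tested. Leaving out control 1 gave 8129 genes above 200 and 6173 below 50. Fewer arrays then have to pass, so both counts rise almost by rule. They do not show how far the classes rest on control 1.

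**Figure D1:**
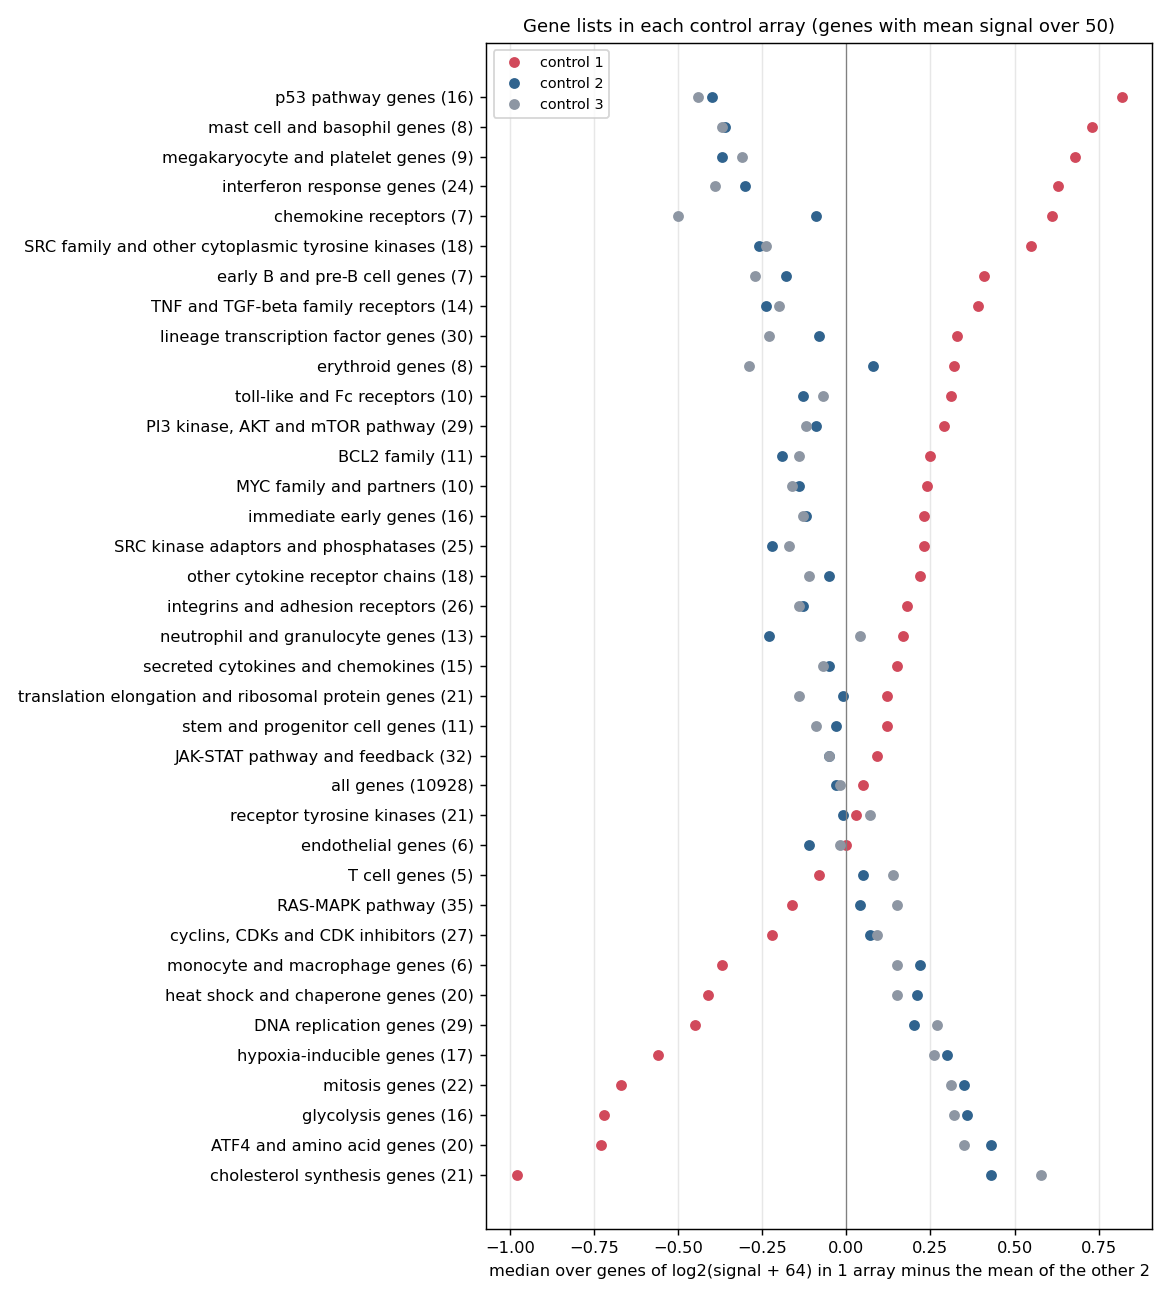
Median over the genes of each list (vertical axis, number of genes with a mean signal over 50 in brackets) of log2(signal + 64) in 1 control array minus the mean of the other arrays, 1 point per array. Lists with at least 5 such genes are drawn, and among these control 1 runs from 0.82 for p53 pathway genes to -0.98 for cholesterol synthesis genes.

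The brightest signals were those of the protein synthesis machinery. Genes with ribosomal protein symbols made up 20 of the 25 brightest genes, 33 of the brightest 50 and 34 of the brightest 100. Symbols were matched by how they begin, a form that S6 kinase genes share, and 48 of the 57 measured symbols of this form lay above 200. Rps29, which encodes a protein of the small ribosomal subunit, had the highest mean, with signals of 43263, 42581 and 40631 and a mean of 42158 ± 1366 (SD, n = 3, as in every mean below). Rps3a1 at 40733 ± 3376, Rpl38 at 40625 ± 4478 and Rps18 at 39425 ± 5010 followed, and their arrays overlapped with those of Rps29. The remaining ribosomal protein genes of the brightest 25 were Rps10, Rplp2, Rps28, Rpsa, Rps4x, Rps20, Rplp0, Rpl13a, Rpl7a, Rps14, Rps7, Rpl4, Rpl41, Rpl35, Rps2 and Rpl10a, with means from 32207 to 39015. Many ribosomal protein genes have processed copies in the genome, so that a probe set can read more than 1 locus. Signals near this height are also close to the highest values of the arrays, 45547, 42581 and 40631.

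The other genes of the brightest 25 were Eef1a1, Tpt1, Lgals1, Tmsb4x and Pabpc1. Eef1a1, the elongation factor that brings aminoacyl-tRNA to the ribosome, had 38732, 37261 and 35493. Tpt1, a translationally controlled growth-associated protein, had a mean of 34428 ± 2941, although its other probe set lay below 50. Lgals1, which encodes the secreted lectin galectin-1, read 31221, 35706 and 33596. Tmsb4x, the actin-monomer-binding thymosin beta 4, had a mean of 32482 ± 1229 and Pabpc1, the poly(A)-binding protein of mRNA tails, one of 32442 ± 2752. The list of translation genes had all 21 of its measured members above 200, with a median of 31295, against a median of 124 over all genes.

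Among the receptors of the IL-3 family, 3 of 5 measured chains lay above 200 and 2 below 50. Csf2rb, the shared beta chain, had signals of 22251, 12964 and 12267, a mean of 15827 ± 5574. Csf2rb2, the IL-3-specific beta chain, had 19369, 8537 and 7821, a mean of 11909 ± 6470. Il3ra, the alpha chain that binds IL-3, had 720, 462 and 403, a mean of 528 ± 168. Control 1 was the highest array for all 3 chains, and Csf2rb2 was the one at least 2-fold above both other arrays there. The coding regions of Csf2rb and Csf2rb2 are near-identical, and signal of 1 gene on the probes of the other cannot be told apart here. Csf2ra, the GM-CSF-binding alpha chain, lay below 50 with 36.6, 6.33 and 33.1. Il5ra, the interleukin 5-binding chain, lay there too with 36.7, 5.99 and 27.1. The markers chosen for IL-3-responding cells, Csf2rb and Il3ra, were thus above 200 in every array.

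**Figure D2:**
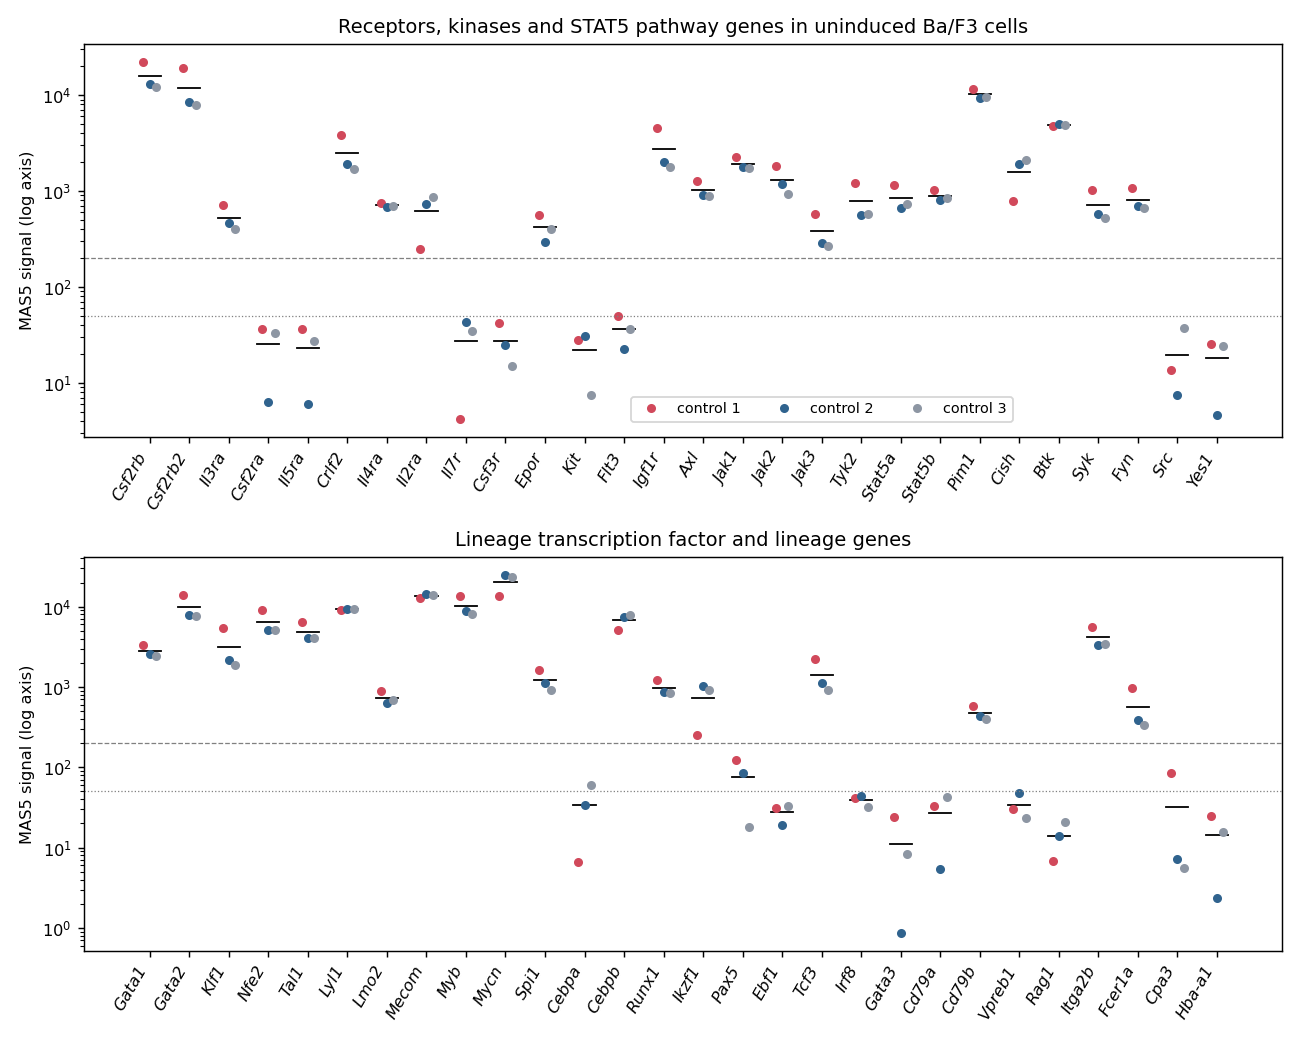
MAS5 signals (vertical log axis) of receptor, kinase and STAT5 pathway genes (upper panel) and lineage genes (lower panel), 1 point per control array, with short bars at the means and broken lines at 200 and 50. Csf2rb, Csf2rb2 and Il3ra lie above 200 in every array, and Csf2ra, Il5ra and Kit lie below 50.

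The path below the receptor was represented almost completely. Of 32 measured genes of JAK-STAT signalling and its feedback, 30 (93.8%) lay above 200 and none below 50. Jak2, the kinase bound to the beta chain, had 1817, 1181 and 925, and Jak1, its relative used by interferon and gamma chain receptors, had 2247, 1773 and 1739. Stat5a and Stat5b, the factors that JAK2 activates, had 1153, 666 and 730 and 1038, 806 and 851, and are named here after their values were seen. Pim1, a serine/threonine kinase gene switched on through STAT5, had a mean of 10180 ± 1218, and its relative Pim2 had 437, 1964 and 2143. Pim2 was therefore among the genes most divided between the arrays, with control 1 lowest. Socs2, a feedback inhibitor of cytokine receptors, had 3036, 2951 and 2888, with arrays that differed little. The phosphatase genes Ptprc (CD45), Ptpn2 and Ptpn6 (SHP-1) had means of 9712 ± 321, 3701 ± 300 and 2791 ± 166.

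The other cytokine receptor chains were divided, with 13 of 32 above 200 (40.6%, close to the 44.0% of all genes) and 11 below 50. Crlf2, a receptor chain for thymic stromal lymphopoietin, was brightest with 3820, 1900 and 1683. Ifnar2, a chain of the type I interferon receptor, had a mean of 1857 ± 107, and Ifngr1, of the interferon gamma receptor, one of 747 ± 333. Il17ra and Il4ra, binding chains for interleukins 17 and 4, and Il10rb, the accessory chain of the interleukin 10 receptor, had means of 997 ± 56.1, 715 ± 39.3 and 976 ± 215. Il4ra had 3 probe sets, 1 of which lay below 50. Il7r, the receptor on which B cell precursors depend, had 4.16, 43.7 and 34.4 and lay below 50 on both of its probe sets. Il6st, the gp130 chain shared by interleukin 6 and oncostatin M, had 7.76, 25.2 and 21.3 and lay below 50 on all 4 of its probe sets. Il10ra, the interleukin 10-binding chain, Il9r, Il13ra1 and Lifr were below 50 too, with means from 5.67 to 31.2.

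Receptors of other families held bright and dim genes. Among TNF and TGF-beta family receptors, 7 of 19 (36.8%) lay above 200 and 3 (15.8%) below 50, against 44.0% and 32% of all genes. Tnfrsf13b (TACI), a receptor for the B cell survival factor BAFF, had 3641, 2780 and 2967, whereas Tnfrsf13c, the BAFF receptor itself, had 18.4, 4.80 and 8.52. Cd40 and Cd27, costimulatory receptors of B cells, lay below 50. Tgfbr1 and Tgfbr2, the pair of chains that bind TGF-beta, had means of 1939 ± 313 and 1373 ± 333, while 1 of 3 probe sets of Tgfbr2 lay below 50. Of 21 toll-like and Fc receptor genes, 7 (33.3%) lay above 200 and 7 (33.3%) below 50, the latter near the share of all genes. Fcer1g, the signalling chain shared by Fc receptors, had 5848, 5382 and 4895, and Fcgr2b, the inhibitory IgG receptor, had 2412, 1571 and 1493. Tlr4, the sensor of bacterial lipopolysaccharide, had 324, 584 and 544, and its co-receptor Cd14 had 6.85, 24.7 and 16.3. Tlr1, Tlr3, Tlr7, Tlr8 and Tlr13 lay below 50, with means from 2.56 to 31.3.

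Chemokine receptors were seldom bright, with 4 of 19 above 200 (21.1%) and 8 below 50. Cxcr4, which holds haematopoietic cells in bone marrow, had 6105, 4303 and 3439. Ccr1 and Ccr2, receptors for inflammatory CC chemokines, had means of 1274 ± 553 and 1082 ± 199, and Cxcr2, the neutrophil chemokine receptor, had 649, 242 and 262. Control 1 was the highest array for each of these receptors. Ccr7 and Cxcr5, which guide lymphocytes to lymph nodes and follicles, had means of 3.36 ± 1.73 and 31.9 ± 8.81. Integrins and adhesion receptors were mostly bright, with 21 of 33 above 200 (63.6%). Cd47, the "do not eat me" signal for macrophages, had a mean of 16456 ± 1145, and Cd53, a tetraspanin of leukocytes, one of 14493 ± 2148. Itgb2, the beta chain of leukocyte integrins, had 10275, 5796 and 5340, and Itga4, the alpha chain of VLA-4, had 8103, 2651 and 2415. Itgam (CD11b), Itga1, Itga2, Cd9 and Cd24a lay below 50, Cd24a on all 3 of its probe sets with 10.7, 15.9 and 16.6.

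Receptor tyrosine kinases, the kinases that oncogenic fusions often come from, were rarely bright. Of 40 measured, 5 (12.5%) lay above 200, 14 (35.0%) lay below 50 and 21 met neither condition. Igf1r, the receptor for insulin-like growth factor 1, was brightest with 4558, 1989 and 1793, and 4 of its 5 probe sets lay above 200. Insr, the insulin receptor, had 833, 705 and 607. Axl, a receptor for the ligand GAS6, had 1262, 908 and 897, although its other probe set lay below 50. Erbb3 and Egfr, of the EGF receptor family, were near the limit with 224, 364 and 435 and with 232, 235 and 268. Probe sets disagreed for both, since 1 of 2 for Erbb3 and 3 of 7 for Egfr lay below 50. Kit, the receptor for stem cell factor, had 28.2, 30.5 and 7.50. Pdgfra, Pdgfrb, Erbb2, Met and Mst1r were below 50 as well, with means from 9.51 to 26.0, and no probe set of these 5 genes was above 200. Tyro3, a relative of Axl, lay just outside the upper class with 234, 214 and 189, and Flt3, the receptor for FLT3 ligand, just outside the lower one with 50.4, 22.8 and 36.4.

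Cytoplasmic tyrosine kinases were brighter, with 15 of 26 (57.7%) above 200 and 5 below 50. Btk, the kinase behind the B cell receptor, was highest with 4774, 5013 and 4907, a mean of 4898 ± 120. Tnk2, Csk and Fes, respectively a CDC42-binding kinase, the kinase that restrains SRC family members and a myeloid kinase, had means of 2776 ± 93.3, 1842 ± 484 and 1781 ± 241. Src and Yes1, broadly expressed members of the SRC family, had 13.8, 7.47 and 37.8 and 25.5, 4.58 and 24.1. Src lay below 50 on both of its probe sets and Yes1 on all 4. Frk, Bmx and Ptk6, kinases known from epithelial and vascular cells, had means of 11.5 ± 9.51, 15.9 ± 8.10 and 15.3 ± 6.53. Over the 18 members with a mean signal over 50, control 1 was higher than the mean of the other arrays in 15, with a median log2 difference of 0.55. Over all 10928 genes with such a mean it was higher in 5968 and lower in 4960, with a median of 0.05.

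Adaptors and phosphatases that work with SRC kinases lay above 200 in 21 of 32 cases (65.6%). After Ptprc, the brightest were Fyb and Lcp2 (SLP-76), adaptors of haematopoietic cells, with means of 3236 ± 845 and 3134 ± 543, and Dok2, an inhibitor of RAS signalling, with 2532, 3325 and 3720. Skap2, a partner of Fyb, had a mean of 2358 ± 413. Blnk, the adaptor of the pre-B cell receptor, had 42.0, 10.1 and 23.8, and Lax1, Sit1, Skap1 and Vav3 lay below 50 too.

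The RAS-MAPK list had 27 of 37 genes above 200 (73.0%). Dusp6, a phosphatase induced by and acting on ERK, had 3974, 6242 and 6255. Mapk14 (p38 alpha) had a mean of 4784 ± 514, Spred1, an inhibitor of RAS, one of 2863 ± 769, and Map2k1 (MEK1) one of 2655 ± 522. Control 1 was lower than the mean of the others in 24 of the 35 genes with a mean over 50, with a median log2 difference of -0.16, against 4960 of all 10928 genes. Rasgrp4, a RAS exchange factor of mast cells, and Map2k6, a p38 kinase, lay below 50. The PI3 kinase, AKT and mTOR list had 27 of 31 above 200 (87.1%). Eif4ebp1 and Eif4e, the mTOR-controlled inhibitor and its cap-binding target, had means of 8762 ± 2052 and 6503 ± 1599. Rheb, the small GTPase that activates mTOR, had 4430, 8387 and 8427, and Pik3cd, the leukocyte PI3 kinase delta, had 7114, 4747 and 5482. Sgk1, a kinase related to AKT, had 9.95, 10.7 and 11.1.

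Although the line is counted as an early B cell, few B lineage genes were bright. Of 23 measured early B and pre-B cell genes, 4 (17.4%) lay above 200, 11 (47.8%) lay below 50 and 8 met neither condition. Bank1, a B cell scaffold protein, had 2836, 2473 and 2614. Cd37 and Cd72, surface proteins of B cells, had 2931, 1017 and 1035 and 700, 450 and 432. Cd79b, a signalling chain of the B cell receptor, had 577, 433 and 403, while its obligate partner Cd79a had 32.8, 5.47 and 43.0. The B lineage factor Ebf1 had 30.9, 18.9 and 33.0, with all 5 of its probe sets below 50. Vpreb1, part of the surrogate light chain, had 30.5, 47.7 and 23.5. Rag1 and Rag2, which recombine the immunoglobulin genes, had means of 13.8 ± 6.97 and 3.50 ± 2.65. Pax5, the factor that commits cells to the B lineage, met neither condition with 123, 86.1 and 17.8, and is named here after its values were seen.

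T and NK cell genes were mostly dim. Of 18 T cell genes, 2 lay above 200 and 11 (61.1%) below 50. The exceptions were the signalling genes Lat, an adaptor of the T cell and Fc receptors, with 360, 596 and 638, and Zap70, a kinase of the T cell receptor, with 434, 245 and 240, of whose 3 probe sets 1 lay below 50. Cd3d, Cd3e and Cd3g, the invariant chains of the T cell receptor complex, had means of 8.07 ± 3.33, 23.1 ± 16.6 and 10.9 ± 6.41. Cd4 and Cd8b1, the co-receptors, had means of 7.92 ± 1.79 and 8.36 ± 7.48. Of 14 NK cell genes, 0 lay above 200 and 10 (71.4%) below 50, among them the lectin receptor genes Klrd1, Klrk1, Klra1, Klra8 and Klre1 and the granzyme Gzma, with means from 6.69 to 27.6. In RNA from a whole culture, fewer cells of a type and less RNA per cell cannot be told apart.

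**Figure D3:**
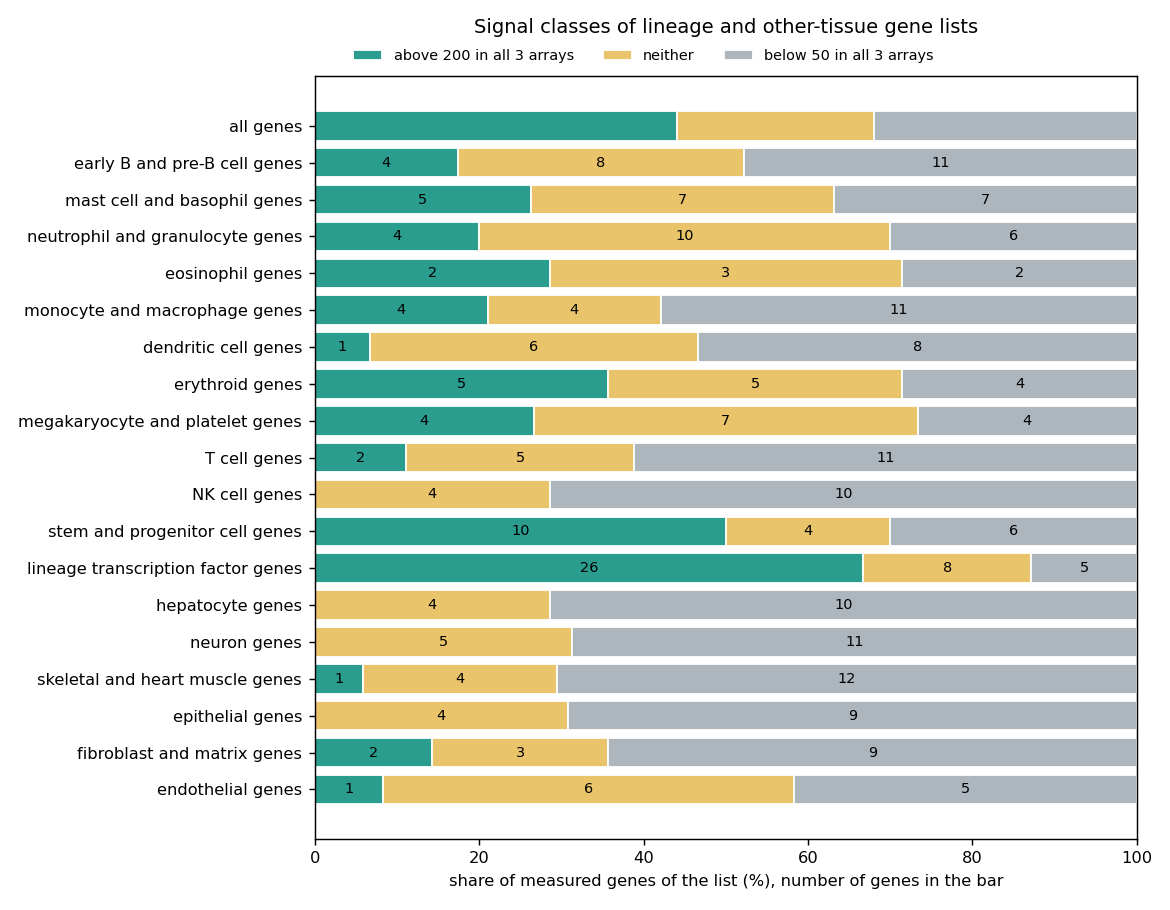
Share of the measured genes of each lineage and tissue list (horizontal axis, %) that lay above 200 in all 3 arrays, below 50 in all 3 or in neither class, with gene counts in the bars and all genes on top. Lineage transcription factors have 26 of 39 above 200, against 0 of 14 for hepatocyte and for NK cell genes.

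Of 19 mast cell and basophil genes, 5 (26.3%) lay above 200 and 7 (36.8%) below 50, against 44.0% and 32% of all genes. Srgn, the core protein of granule proteoglycans that other blood cells also express, had 22295, 22516 and 21409. Gata2, a factor of progenitors and mast cells, had 14084, 7775 and 7669. Gzmb, the granule protease granzyme B, had 6539, 674 and 645 and thus the largest spread of all genes above 200, with control 1 far above the others. Fcer1a, the IgE-binding chain, had 975, 388 and 341, and Mitf, a mast cell and melanocyte factor, had a mean of 442 ± 84.4. Kit and the granule proteases and tryptases Mcpt1, Mcpt2, Mcpt4, Tpsab1 and Tpsb2 lay below 50, with means from 5.61 to 37.3. Cma1, the mast cell chymase, lay just outside the upper class with 615, 190 and 186. In control 1, 3 of the 8 mast cell genes with a mean over 50 were at least 2-fold above both other arrays, whereas 2.91% of all 10928 genes were.

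The list of granulocyte genes likewise held bright and dim members. Of 20 neutrophil genes, 4 lay above 200, a smaller share than the 44.0% of all genes. Another 6 (30%) lay below 50, a share near the 32% of all genes. Padi4, which citrullinates histones in neutrophils, had 2517, 1585 and 1493, and Prtn3, the granule enzyme proteinase 3, had 1763, 932 and 891. Mmp9, a matrix protease of neutrophil granules, had a mean of 321 ± 114. Ctsg, Camp, Mmp8 and Chil3, also granule or secretory products of myeloid cells, lay below 50, with means from 2.09 to 9.60. Csf3r, the receptor for G-CSF, had 41.8, 25 and 15.1. Ngp, a neutrophil granule protein, had 153, 1216 and 1097 and so met neither condition because of control 1.

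Eosinophil genes were fewer, with 7 measured, 2 (28.6%) above 200 and 2 (28.6%) below 50. Ms4a3, a membrane protein of granulocyte progenitors, had 1909, 3575 and 3493, and Prg2, the eosinophil major basic protein, had 585, 2379 and 2500. Epx, the eosinophil peroxidase, had 36.1, 714 and 720. Control 1 was the lowest array for each of these, and was lower than the mean of the others in all 4 eosinophil genes with a mean over 50. In control 1, 2 of these 4 genes were at least 2-fold below both others, against 1.47% of all 10928 genes.

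Of 19 monocyte and macrophage genes, 4 lay above 200 and 11 (57.9%) below 50. Adgre1, which encodes the macrophage antigen F4/80, had 573, 1012 and 955, and Fcgr1, the high-affinity IgG receptor, had 241, 750 and 720. Cd68, a lysosomal protein, lay just inside the upper class with 206, 290 and 260. Cd14, Mrc1, Marco and Msr1, pattern recognition receptors of macrophages, and Irf8, a factor of monocytes and dendritic cells, lay below 50 with means from 16 to 38.7. Among 15 dendritic cell genes, Bst2, an interferon-induced protein that tethers viruses, was the only gene above 200, with 2853, 1004 and 973. H2-Aa, a class II antigen presentation chain, had 35.9, 15.8 and 5.15 and lay below 50 on all 4 of its probe sets.

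The erythroid and megakaryocyte lists held bright and dim genes, with regulators and surface products among the bright ones. Klf1 and Gata1, the factors that direct red cell genes, had 5388, 2196 and 1893 and 3373, 2579 and 2419. Tfrc, the transferrin receptor of dividing cells, had 2793, 7364 and 7848, and Epor, the erythropoietin receptor, had 567, 293 and 399. Rhag, an ammonium channel of the red cell membrane, had 1725, 342 and 340. Hba-a1, Alas2, Slc4a1 and Car1, which encode alpha globin, the erythroid enzyme of haem synthesis, the band 3 anion exchanger and a carbonic anhydrase, lay below 50, with means of 14.4 ± 11.3, 4.86 ± 1.21, 25 ± 14.3 and 15.5 ± 7.21. On the platelet side Nfe2, a factor of platelet release, had 9038, 5130 and 5175, and Itga2b, the alpha chain of the fibrinogen receptor, had 5622, 3371 and 3427. Fli1 had a mean of 2995 ± 644, and Gp9, a chain of the von Willebrand factor receptor, one of 815 ± 253. Pf4, Ppbp, Vwf and Clec1b, platelet granule and surface products, had means from 5.27 to 28.5. Of 14 erythroid genes, 5 (35.7%) lay above 200 and 4 (28.6%) below 50. Of 15 megakaryocyte genes, 4 (26.7%) lay above 200 and 4 (26.7%) below 50, against 44.0% and 32% of all genes.

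Of 20 stem and progenitor genes, 10 (50%) lay above 200 and 6 (30%) below 50, shares near the 44.0% and 32% of all genes. Mycn, a MYC family factor, had 13533, 24759 and 23251, the highest signal of the list. Mecom, which encodes the stem cell factor EVI1, had 12678, 14343 and 13956, although only 1 of its 3 probe sets lay above 200 and another lay below 50. Myb and Gata2, progenitor factors, had means of 10163 ± 2906 and 9843 ± 3674, and Lyl1 and Tal1, related basic helix-loop-helix factors, had 9311 ± 243 and 4865 ± 1352. The surface markers Cd34, Kit, Prom1 and Procr lay below 50, Cd34 with 14.6, 21.3 and 3.81. Of 39 lineage transcription factors 26 (66.7%) lay above 200 and 5 below 50. Id1, an inhibitor of E proteins, had 4098, 10002 and 10162, and Cebpb, a factor of myeloid cells, had 5096, 7361 and 7911. Cbfb, the partner of RUNX factors, had a mean of 6910 ± 569, and Ikzf2 (Helios), an Ikaros relative, one of 6815 ± 1365. Gata3, Id3 and Mef2c, known from lymphoid development, lay below 50 together with Ebf1 and Irf8. Foxo1, which acts in B cell development, lay just outside that class with 45.1, 50.1 and 48.7.

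Lists for tissues outside the blood were read beside the others. Of their 86 measured genes, 4 (4.65%) lay above 200 and 56 (65.1%) below 50, with a median signal of 26.7. Of the liver genes, 10 of 14 lay below 50, with albumin (Alb) at 32, 3.22 and 46.1. The neuron, muscle and epithelial lists had 11 of 16, 12 of 17 and 9 of 13 genes below 50. The synaptic Snap25 had a mean of 8.81 ± 4.51, the myosin Myh1 one of 11.4 ± 12.0 and E-cadherin (Cdh1) one of 4.65 ± 5.91. The 4 genes above 200 were Vim, Col5a1, Ckm and Pecam1. Vim, the intermediate filament vimentin that blood cells also make, had 7050, 14185 and 13687, and Pecam1, an adhesion protein shared by leukocytes and endothelium, had 1367, 1273 and 1425. Col5a1, a chain of the fibrillar collagen V, had 15213, 9687 and 8957 with all 3 probe sets above 200, whereas Col1a1, Col3a1, Col6a1, Dcn, Lum and Postn of the same list lay below 50. Ckm, the creatine kinase of muscle, had 6365, 4409 and 3951 on 1 of 2 probe sets, whereas Myh1, Myh2, Myh4, Myh6, Mb and Tnnt3 lay below 50.

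Genes of cell division were bright nearly without exception. All 22 mitosis genes and 28 of 29 DNA replication genes lay above 200. Pcna, the sliding clamp of DNA polymerase, had 17284, 20574 and 20143, and Mcm7, a subunit of the replicative helicase, had a mean of 12411 ± 923. Mki67, the proliferation antigen Ki-67, had 6148, 11748 and 10457, and Top2a, the topoisomerase that untangles chromosomes, had 8976, 17273 and 16649. Control 1 was lower than the mean of the others in all 22 mitosis genes, with a median log2 difference of -0.67, and in 25 of 29 replication genes, with a median of -0.45. None of the mitosis genes reached a 2-fold distance, and 2 replication genes did. Over all 10928 genes the median was 0.05.

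Cyclins and their kinases lay above 200 in 25 of 29 cases (86.2%). Ccnd2 was the brightest D-type cyclin named, with 7494, 5642 and 5829 and all 7 of its probe sets above 200. Its kinases Cdk6 and Cdk4 had means of 8072 ± 1169 and 5961 ± 873. Cdkn1a, the inhibitor p21, had 10734, 5536 and 5190, and Ccnb2 and Ccna2, the mitotic and S phase cyclins, had 5140, 7689 and 7445 and 3229, 6253 and 5588. Control 1 was the highest array for Cdkn1a, Ccnd2 and Cdk6 and the lowest for Cdk4, Ccnb2 and Ccna2. Cdkn1c (p57) and Ccna1, a cyclin of germ cells, lay below 50. In the MYC family, 9 of 11 genes lay above 200, with Myc at 6603, 5475 and 5657 and Max, its partner, at 2166 ± 187. Mycl had a mean of 29.1 ± 12.2 and lay below 50 on all 3 probe sets.

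Genes of the BCL2 family, which holds survival and death genes, lay above 200 in 9 of 14 cases (64.3%). Bcl2 had 8718, 8876 and 8302 with all 5 probe sets above 200, and Mcl1, a short-lived relative, had 5520, 9347 and 9256. Bcl2l1, which encodes BCL-XL, had 734, 1074 and 1231. Among the pro-apoptotic members, Bid had a mean of 4662 ± 1967, Bbc3 (PUMA) one of 1435 ± 318 and Bad one of 945 ± 369. Bcl2l11 (BIM), a death gene of blood cells, had 2010, 421 and 360, and control 1 was far above the others. Bik had a mean of 24.9 ± 17.7, and Pmaip1 (NOXA) had 0.584, 0.986 and 1.03.

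**Figure D4:**
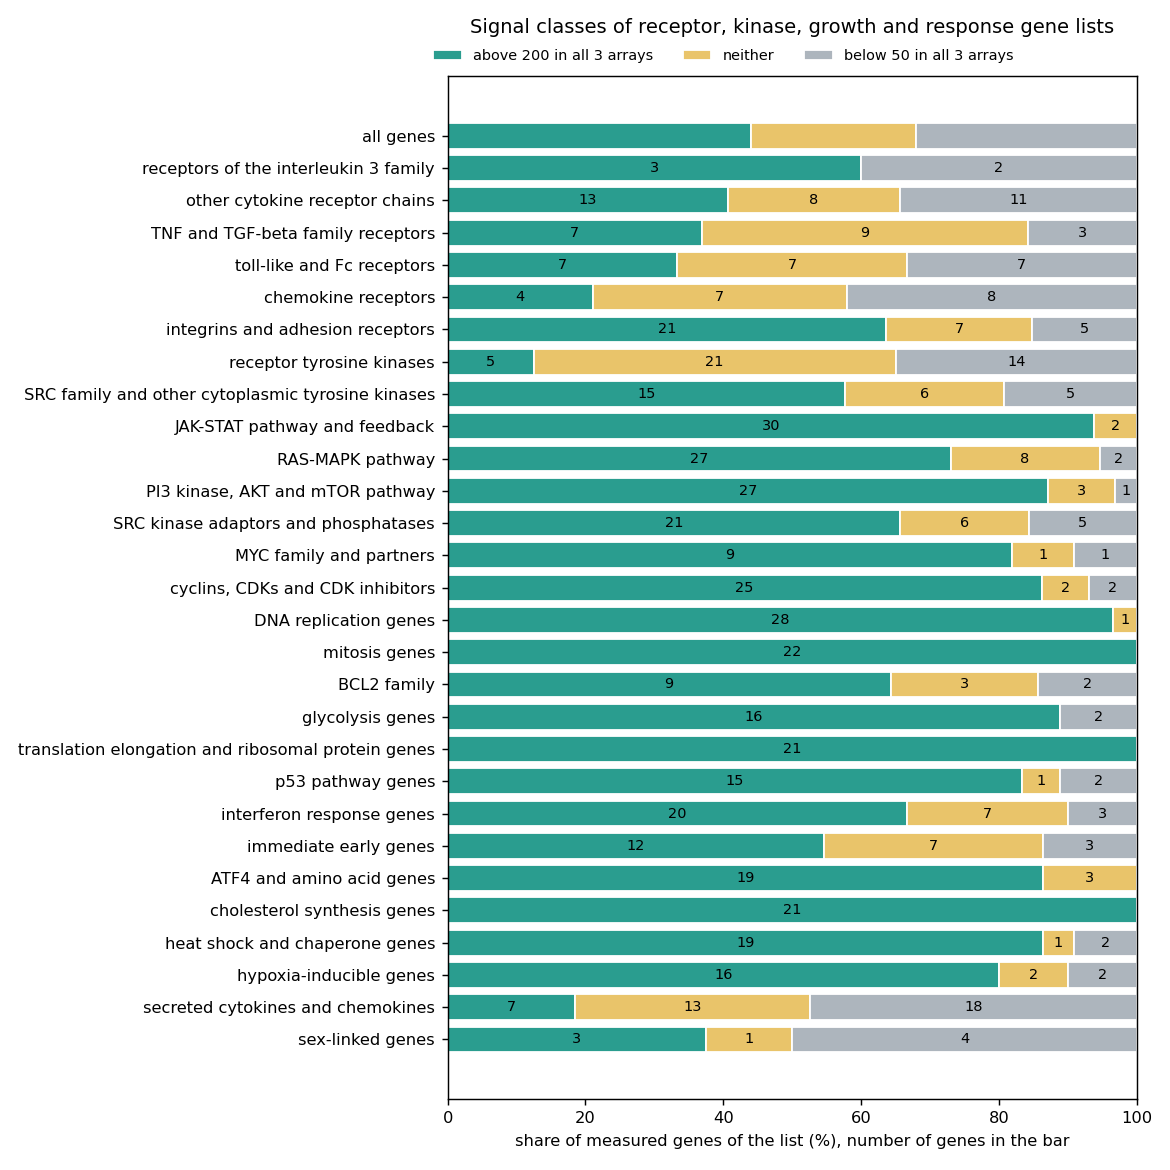
Share of the measured genes of each receptor, kinase, growth and response list (horizontal axis, %) that lay above 200 in all 3 arrays, below 50 in all 3 or in neither class, with gene counts in the bars. Mitosis, translation and cholesterol genes lie above 200 without exception, and receptor tyrosine kinases in 5 of 40 cases.

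Metabolic lists were bright but differed between arrays. Of 18 glycolysis genes, 16 lay above 200. Aldoa, Ldha and Pgk1, enzymes of the pathway, had 11473, 19980 and 21461, then 13261, 19765 and 19356, then 10803, 19451 and 19014. Control 1 was lower in 12 of the 16 genes with a mean over 50, with a median log2 difference of -0.72, and at least 2-fold below both others in 4 of them, against 4960 of 10928 genes lower and 1.47% below both others overall. The brain isoform Aldoc and the lactate exporter Slc16a3 (MCT4) lay below 50. Of 20 hypoxia-inducible genes, which share several members with glycolysis, 16 lay above 200, and Bnip3, a mitophagy receptor, had 1147, 6149 and 6316. Hif1a, the oxygen-regulated factor, had 3061, 6100 and 6217, while Egln3 and P4ha2, hydroxylases that hypoxia induces, lay below 50.

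All 21 cholesterol synthesis genes lay above 200 and all 21 were lower in control 1 than the mean of the others, with a median log2 difference of -0.98. Fdps, the farnesyl diphosphate synthase, had 3088, 11192 and 11409, and Hmgcs1, which makes the precursor HMG-CoA, had 1653, 5292 and 5187. The other probe set of Fdps and 1 of 5 for Hmgcs1 lay below 50. Cyp51, the lanosterol demethylase, had 402, 2055 and 2114. Control 1 was at least 2-fold below both others in 9 of 21, against 1.47% of all genes. ATF4 and amino acid genes followed the same order of arrays, with 19 of 22 above 200, 18 of 20 lower in control 1 and a median of -0.73. Over all 10928 genes with a mean over 50, 4960 were lower in control 1. Phgdh and Psat1, enzymes of serine synthesis, had 8532, 17093 and 17762 and 7206, 15898 and 15331. Asns, the asparagine synthetase, had 5416, 13367 and 12993, and Atf4, the factor itself, had 7724, 13208 and 11868. Nupr1, a stress-induced chromatin protein, had 255, 2347 and 2221. Heat shock genes lay above 200 in 19 of 22 cases, with Hspa8, the constitutive HSC70, at 25663 ± 1203 and Hsp90aa1, an HSP90 chaperone, at 21760 ± 2948. Hspa1a and Hspa1b, near-identical stress-inducible copies of HSP70 that probes cannot separate with certainty, had means of 16.7 ± 8 and 18.5 ± 4.05.

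The p53 and interferon lists showed the opposite order of arrays. Of 18 p53 pathway genes, 15 lay above 200, and control 1 was higher than the mean of the others in 15 of the 16 with a mean over 50, with a median log2 difference of 0.82. Ccng1, a cyclin induced by p53, had 15488, 7933 and 8146, Trp53inp1, a p53-induced nuclear protein, had 8858, 2516 and 2310, and Zmat3, an RNA-binding p53 target, had 4664, 1517 and 1476. In control 1, 5 of these 16 genes were at least 2-fold above both others, against 2.91% of all genes. Of 30 interferon response genes, 20 lay above 200. Control 1 was higher in 23 of the 24 with a mean over 50, with a median of 0.63, and at least 2-fold above both others in 6. Over all 10928 genes with such a mean it was higher in 5968. Psmb8 and Psmb9, subunits of the immunoproteasome, had 13140, 6263 and 6589 and 10082, 4872 and 4625. B2m, the light chain of class I antigens, had 16441, 12508 and 12214. Ifitm3, an antiviral membrane protein, went against the rest of the list with 23146, 27833 and 26274. Mx2, Cxcl10 and Rtp4 lay below 50.

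Immediate early genes lay above 200 in 12 of 22 cases (54.5%). Ier2, an early growth factor response gene, had 4645, 4804 and 4794, and Jund, an AP-1 subunit, had 4869, 3315 and 3030. Ier3 had 4135, 2011 and 1915, while Atf3, Klf2 and Klf4 lay below 50 with means from 19.1 to 21.2. Of 38 secreted cytokine and chemokine genes, 7 (18.4%) lay above 200 and 18 (47.4%) below 50. Il3, the ligand on which the line depends, had 1.06, 3.63 and 7.80, and Csf2, which encodes GM-CSF, had 5.45, 6.96 and 2.08. Il6 had 657, 2125 and 2099, Tgfb1 a mean of 1577 ± 265 and Osm, which encodes oncostatin M, one of 619 ± 23.8. Ccl6 and Ccl9, myeloid CC chemokines, had means of 1422 ± 165 and 1275 ± 146. Il2, Il5, Il9 and Il13 lay below 50, with means from 6.87 to 24.7.

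By chromosome, the share of genes above 200 ran from 37.6% on X to 49.3% on chromosome 19 among the numbered chromosomes and X. Of 9 measured genes of the Y chromosome, 0 lay above 200 and 5 lay below 50, among them Eif2s3y, Kdm5d, Uty and Usp9y with means from 6.47 to 21.8. Ddx3x, Eif2s3x and Kdm6a, X-linked genes that have a Y-linked relative, had means of 9241 ± 1001, 7977 ± 969 and 1071 ± 200.

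The spread relative to the mean was larger for dim genes. The median coefficient of variation was 59.5% for genes with means up to 50, 19.7% for means from 200 to 500 and 13.0% for means above 10000, and it was 14.3% over the 8007 genes above 200. On the log2(signal + 64) scale, where the offset damps dim signals, the median SD was 0.18, 0.24 and 0.19 in the same 3 ranges. Control 1 was at least 2-fold above both other arrays in 318 genes (2.91%) and below both in 161 (1.47%). Control 2 was so far above in 3 genes (0.0275%) and below in 6 (0.0549%), and control 3 above in 4 (0.0366%) and below in 3 (0.0275%). Among genes with a mean over 200, the gene farthest below both others in control 1 was Serpinb1a, an inhibitor of granule proteases, with 158, 4957 and 5316. The genes farthest above were the ion channel gene Trpc6 with 635, 1.52 and 10.2 and Gzmb, followed by Pkd2l1, Taf4b, Npl and Csrp3. Trpc6, Pkd2l1 and Csrp3 lay below 200 in controls 2 and 3, so their means passed the limit of 200 only through control 1. Malat1 and Neat1, long noncoding RNAs kept in the nucleus, were also higher in control 1, Malat1 with 26668, 5580 and 4950 on the brightest of 7 probe sets that all lay above 200 and Neat1 with 3372, 723 and 749. Taf4b, a TFIID subunit, had 5157, 677 and 540, and Greb1, a gene known as a target of oestrogen receptor, had 11119, 1933 and 1622.

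Among the genes in which control 2 or 3 stood alone, St3gal6, a sialyltransferase, had 130, 731 and 78.0, Slco2b1, an organic anion transporter, had 336, 51.2 and 271, and Cog7, a Golgi tethering protein, had 246, 510 and 970. Of the 5 probe sets of St3gal6, 4 lay below 50, and its mean passed 200 only through control 2. For Slco2b1, 1 of 3 probe sets lay below 50. At the other end Emilin2, an extracellular matrix glycoprotein, had 9228, 9236 and 9236. Poc5 (a centriole protein), Riok1 and Bysl (both of ribosome maturation), Slc4a2 (an anion exchanger), Casp8 (the initiator caspase) and Braf (a RAF kinase) were also among the 10 genes with the least spread. Their arrays lay within 0.01 of each other as an SD of log2 values, and these genes were picked for their agreement.

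The promoters of bright and dim genes differed in their content of CG dinucleotides, the sites of DNA methylation that cluster in CpG islands before many widely used genes. Sequences from RefSeq (build GRCm38.p6) were matched for 14452 genes, and the 250 bases before the first listed start were counted on the gene's strand. The promoters below are shown because they span the range, from genes bright in every array to dim genes of other cell types, with CG in capitals and all read 5′ to 3′. Rps18 lies at chr17:33955666-33955915 (minus strand) and holds 19 CG, Mki67 at chr7:135716380-135716629 (minus strand) holds 24 and Il3ra at chr14:14346245-14346494 (plus strand) holds 27. Csf2rb2 at chr15:78305722-78305971 (minus strand), bright in these cells, holds 3, while the dim genes Cd3e at chr9:45009612-45009861 (minus strand) and Alb at chr5:90460620-90460869 (plus strand) hold 7 and 2.
Rps18: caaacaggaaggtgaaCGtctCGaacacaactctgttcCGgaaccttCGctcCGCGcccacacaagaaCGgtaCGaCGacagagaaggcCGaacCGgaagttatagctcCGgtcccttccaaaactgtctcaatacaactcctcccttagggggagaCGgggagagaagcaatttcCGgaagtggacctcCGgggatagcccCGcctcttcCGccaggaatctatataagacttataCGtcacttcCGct
Mki67: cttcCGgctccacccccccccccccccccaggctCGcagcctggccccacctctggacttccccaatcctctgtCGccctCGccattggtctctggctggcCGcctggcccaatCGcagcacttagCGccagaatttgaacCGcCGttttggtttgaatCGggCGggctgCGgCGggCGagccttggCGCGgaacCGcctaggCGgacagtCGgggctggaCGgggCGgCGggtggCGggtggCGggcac
Il3ra: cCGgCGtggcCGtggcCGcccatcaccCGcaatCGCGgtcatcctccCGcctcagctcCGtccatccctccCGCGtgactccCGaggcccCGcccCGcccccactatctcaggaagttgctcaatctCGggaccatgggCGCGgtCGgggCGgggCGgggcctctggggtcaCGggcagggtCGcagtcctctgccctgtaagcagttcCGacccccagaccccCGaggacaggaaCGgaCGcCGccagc
Csf2rb2: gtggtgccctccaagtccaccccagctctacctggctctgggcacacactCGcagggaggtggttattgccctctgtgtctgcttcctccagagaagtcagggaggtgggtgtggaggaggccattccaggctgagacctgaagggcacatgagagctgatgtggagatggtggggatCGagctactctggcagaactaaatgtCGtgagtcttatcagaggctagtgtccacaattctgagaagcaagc
Cd3e: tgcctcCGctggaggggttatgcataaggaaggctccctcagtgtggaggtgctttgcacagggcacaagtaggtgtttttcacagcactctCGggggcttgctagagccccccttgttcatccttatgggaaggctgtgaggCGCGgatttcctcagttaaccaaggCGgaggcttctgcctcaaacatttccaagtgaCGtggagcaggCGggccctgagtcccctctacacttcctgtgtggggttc
Alb: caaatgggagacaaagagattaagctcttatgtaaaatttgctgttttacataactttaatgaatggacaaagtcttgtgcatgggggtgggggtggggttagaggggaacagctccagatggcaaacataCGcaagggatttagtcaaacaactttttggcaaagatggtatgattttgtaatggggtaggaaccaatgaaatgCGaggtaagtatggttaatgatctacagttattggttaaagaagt

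Over all matched genes, the median number of CG was 17.0 for 6638 genes above 200, 10 for 3404 genes in neither class and 5 for 4410 genes below 50. At least 10 CG were found in 80.0%, 51% and 35.0% of them, against 59.4% of all promoters, and at most 2 CG in 2.97%, 16.6% and 27.0%. The TATA box motif TATAAA, searched on both strands in the same window, was found before 5.69% of genes above 200 and 13.8% of genes below 50, against 9.02% of all. The GATA motif AGATAA, also on both strands, was found before 5.29% and 10.2%, against 7.47% of all. These are counts of letters in a window and do not show that a factor binds.

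**Figure D5:**
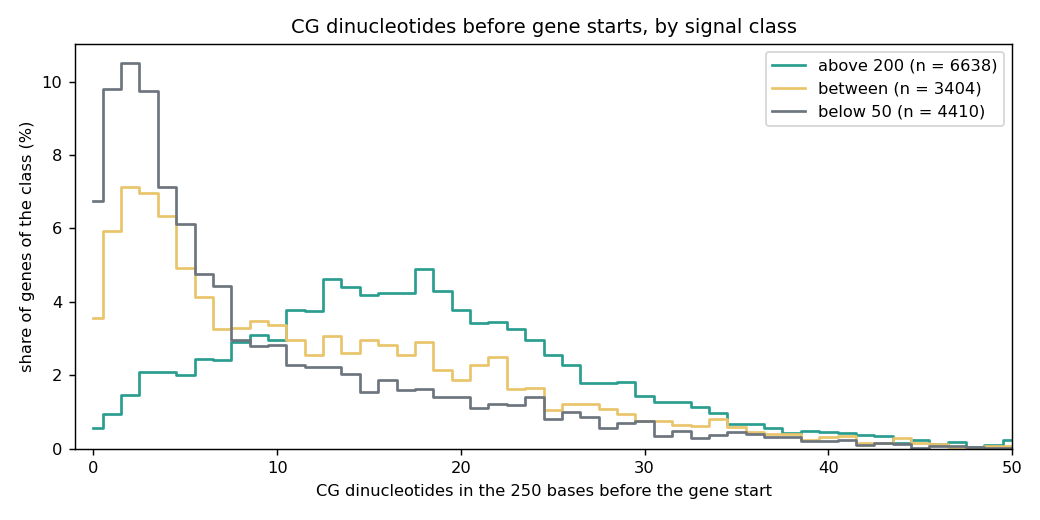
Distribution of the number of CG dinucleotides in the 250 bases before the gene start (horizontal axis) as a share of the genes of each signal class (vertical axis, %). Genes above 200 have a median of 17.0 CG and genes below 50 one of 5, and the classes overlap over the whole range.

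Motifs of STAT, ATF4 and sterol response factors were counted in the same way. Of the lists concerned, JAK-STAT genes did not stand apart in control 1, with a median log2 difference of 0.09 against 0.05 for all genes. No p53 motif was searched. The ATF4 and CEBP composite motif TGATGNAA lay in 5 of 20 promoters of ATF4 and amino acid genes (25%), namely Asns, Chac1, Nupr1, Pck2 and Slc7a11, against 2.43% of all promoters. The STAT motif TTCNNNGAA lay in 1 of 25 promoters of JAK-STAT genes and in 4 of 20 of ATF4 and amino acid genes, against 6.30% of all promoters. The sterol response motif TCACNCCAC lay in 1.02% of all and in 1 of 17 cholesterol synthesis genes, Hmgcs1. The promoters of Asns and Nupr1 are shown because both genes were lower in control 1, with the TGATGNAA match, or its complement, in capitals. They lie at chr6:7693210-7693459 and chr7:126625471-126625720, both on the minus strand of GRCm38.p6. The match of Nupr1 is on the opposite strand, so that it reads TTGCATCA in the printed line.
Asns: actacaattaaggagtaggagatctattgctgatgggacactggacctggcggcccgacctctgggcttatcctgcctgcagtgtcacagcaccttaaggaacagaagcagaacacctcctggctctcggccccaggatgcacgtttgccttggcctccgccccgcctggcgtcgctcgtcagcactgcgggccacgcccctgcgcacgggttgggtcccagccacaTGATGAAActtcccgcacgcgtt
Nupr1: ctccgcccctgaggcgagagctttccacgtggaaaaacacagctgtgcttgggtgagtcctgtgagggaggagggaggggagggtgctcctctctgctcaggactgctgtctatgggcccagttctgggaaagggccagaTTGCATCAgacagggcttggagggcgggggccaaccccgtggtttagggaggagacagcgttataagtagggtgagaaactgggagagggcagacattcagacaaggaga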

How the data were processed

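Each of the 3 uninduced Ba/F3 cultures was read on 1 Affymetrix array. The deposited table holds a linear intensity per probe set, which comes from MAS5 per the submitters' processing notes, and its version is not given in the sources used here. On every array the mean was 500 once the top and bottom 2% of values were left out, which is the usual MAS5 scaling, and detection calls were not used. MAS5 corrects for background and mismatch probes, so dim intensities are noisy. Replicate numbers and the group came from the sample titles.

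Of 45101 probe sets, 64 were array controls, the platform annotation gave 1 gene symbol for 34945, several for 932 and none for 9160, and only the first kind was used. Taking the brightest probe set of a gene by its mean over the 3 arrays gave 18193 genes, 9010 of them with more than 1 probe set. The symbols were checked by Entrez identifier against RefSeq names for 18031 genes, and 0 differed. The thresholds were 200 and 50, and folds between arrays were taken on log2(signal + 64). Calculations used Python 3.11.15 with numpy 2.4.6 and pandas 2.3.3, and the counting was tested on simulated data. No test was made, and arrays carry no read depth, so their number limits the precision. Genes without a usable symbol were left out.

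The 46 gene lists and the members were chosen with earlier results of these data known. Named were the 25 brightest genes, all IL-3 family receptors, for each other list the 6 brightest genes above 200 and up to 6 genes below 50 in list order, the 20 genes with the largest and the 10 with the smallest spread, the 6 genes farthest above and below both others in each array, and list members just inside or outside a threshold. Genes outside this rule are said to be so where they appear, except that genes plotted but not described were picked for their roles, and Chac1, Pck2 and Slc7a11 were named for a promoter motif. Other scalings, probe set choices, thresholds, offsets, filters and left-out arrays were tried as alternatives. The arrays of doxycycline-treated cells were not used here.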

Additional observations from a re-analysis of the deposited data

How the results depend on the processing

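No paired analysis was possible because the report describes 1 group and its results come from no test. The counts of genes above 200 and below 50 (8007 and 5821) stayed within 1.5 times under other scalings, other probe set choices and a threshold of 100 or 400 in place of 200, except that a lower threshold of 32 left 3805 genes. Leaving out 1 array gave 8087 to 8129 genes above 200 and 6173 to 6368 below 50. Such counts rise almost by rule, because fewer arrays have to pass. Over all lists, 473 members lay above 200 and 224 below 50, the latter becoming 346 with a low threshold of 100 and 130 with one of 32, and 475 to 485 and 242 to 253 with 1 array left out. The choice of probe set mattered most for single genes. With the median of a gene's probe sets, 6894 of the 8007 genes remained above 200 and 136 of 430 named means moved by more than their SD, Mecom from 13659 to 85.9 among them. The number of genes 2-fold apart rose with an offset of 16 to 989 for controls 1 and 2, 1068 for controls 1 and 3 and 186 for controls 2 and 3. For controls 2 and 3 it was 3 among genes with a mean over 200, 14 with the median of probe sets and 0 without an offset among genes above 200. Quantile normalisation and the last listed gene start were also chosen after seeing the data for the list medians and the promoters. With the former the median of control 1 was -1.11 for cholesterol and 0.85 for p53 genes, and with the latter 78.0% and 34.2% of genes above 200 and below 50 had at least 10 CG.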
